A study of Mus musculus with 2 samples.

Results

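The cellular response to low oxygen, taken here without the enzymes of glycolysis, was examined in pancreatic islets of adult mice through 44 genes: 10 that encode hypoxia-inducible factor (HIF) subunits or control their turnover, and 34 that HIF is known to act on. The genes were chosen by name, and a probe set was taken only where the platform annotation gave it to a single one of them. This left 42 genes with 96 probe sets (10 regulators with 30 probe sets and 32 targets with 66) out of 18193 genes and 45037 probe sets on the array. Bnip3l and Loxl2 were reached only by probe sets shared with another gene and were not analysed here. One Affymetrix array came from islets of wildtype mice, named as littermate controls in the series text, and 1 from islets of b cell-specific ZBTB20 knockout mice. Both genotypes had a mixed background and an age of 2 to 3 months, and islets of both were hand-picked after collagenase digestion, cultured overnight and frozen. The Cre line or promoter behind the deletion, the deleted part of Zbtb20 and the number of animals behind an array are not given in the sources used here.

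Oxygen acts on this pathway mainly through protein stability. When oxygen is sufficient, prolyl hydroxylases of the EGLN family mark the alpha subunits of HIF, the VHL protein binds the marked subunits and they are degraded. When oxygen is short, the alpha subunits persist, pair with ARNT and bind the letters ACGTG or GCGTG, the core of the hypoxia response element, near genes for blood vessel growth, mitochondrial turnover, collagen modification and glycogen storage. Some targets encode brakes on the response itself, among them Egln1, Egln3 and Cited2. Islets have a dense capillary network in the pancreas, which isolation cuts off from the circulation.

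With 1 array for each genotype there is no replicate error, no test and no p-value. Each ratio below is knockout-labelled over control, compares 1 RNA preparation with another, and is given beside the same count over all genes. The brightest probe set stood for a gene, which counted as measured when its mean log2 signal reached the floor, the median signal of the arrays (21.6 in control islets and 21.7 in the knockout-labelled ones). By this rule 10960 genes were measured, 39 members among them. The other 3 members, Hif3a, Stc2 and Lox, had a mean log2 signal under the floor. A level cannot be compared between genes, since probe sets differ in how strongly they bind. Different probe sets of 1 gene gave log2 ratios with a median SD of 0.21 over 4729 genes, a spread that leaves out all variation between animals. As an islet check, 12 of 12 beta cell markers were measured on both arrays. Zbtb20 itself had 9 probe sets, of which 5 were lower and 4 higher in the knockout array, so its signals do not settle the genotype, hence the term knockout-labelled.

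Among all 39 measured members, 32 had a lower signal in knockout-labelled islets and 7 a higher one, whereas 49.9% of all measured genes were lower. At least 2-fold lower were 4 members, Egln3, Selenbp1, P4ha2 and Adm (1.52% of all genes), and none was at least 2-fold higher (1.89% of all genes). At a limit of 1.5-fold, 14 members were lower (6.41% of all genes) and 1, Cited2, was higher (7.02% of all genes). The 14 include Car9, which was above the floor in control islets only, so that its ratio is a bound. Among the 38 members above the floor on both arrays, 13 were at least 1.5-fold lower (5.75% of all such genes). Targets had a median log2 ratio of -0.49 and regulators one of -0.23, against 0.0 for all genes, a difference of -0.26 between the medians. Under other processing this difference ran from -0.39 to -0.16. Since these genes were picked with earlier results of the same arrays known, the counts describe them and are not independent support for a direction. With the floor at the 70th percentile, which 28 members reached, 2 were at least 2-fold lower (0.826% of all genes at that floor) and 8 at least 1.5-fold lower (3.47%). Averaged over a gene's probe sets, 11 members were at least 1.5-fold lower (5.21% of all genes).

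**Figure D1:**
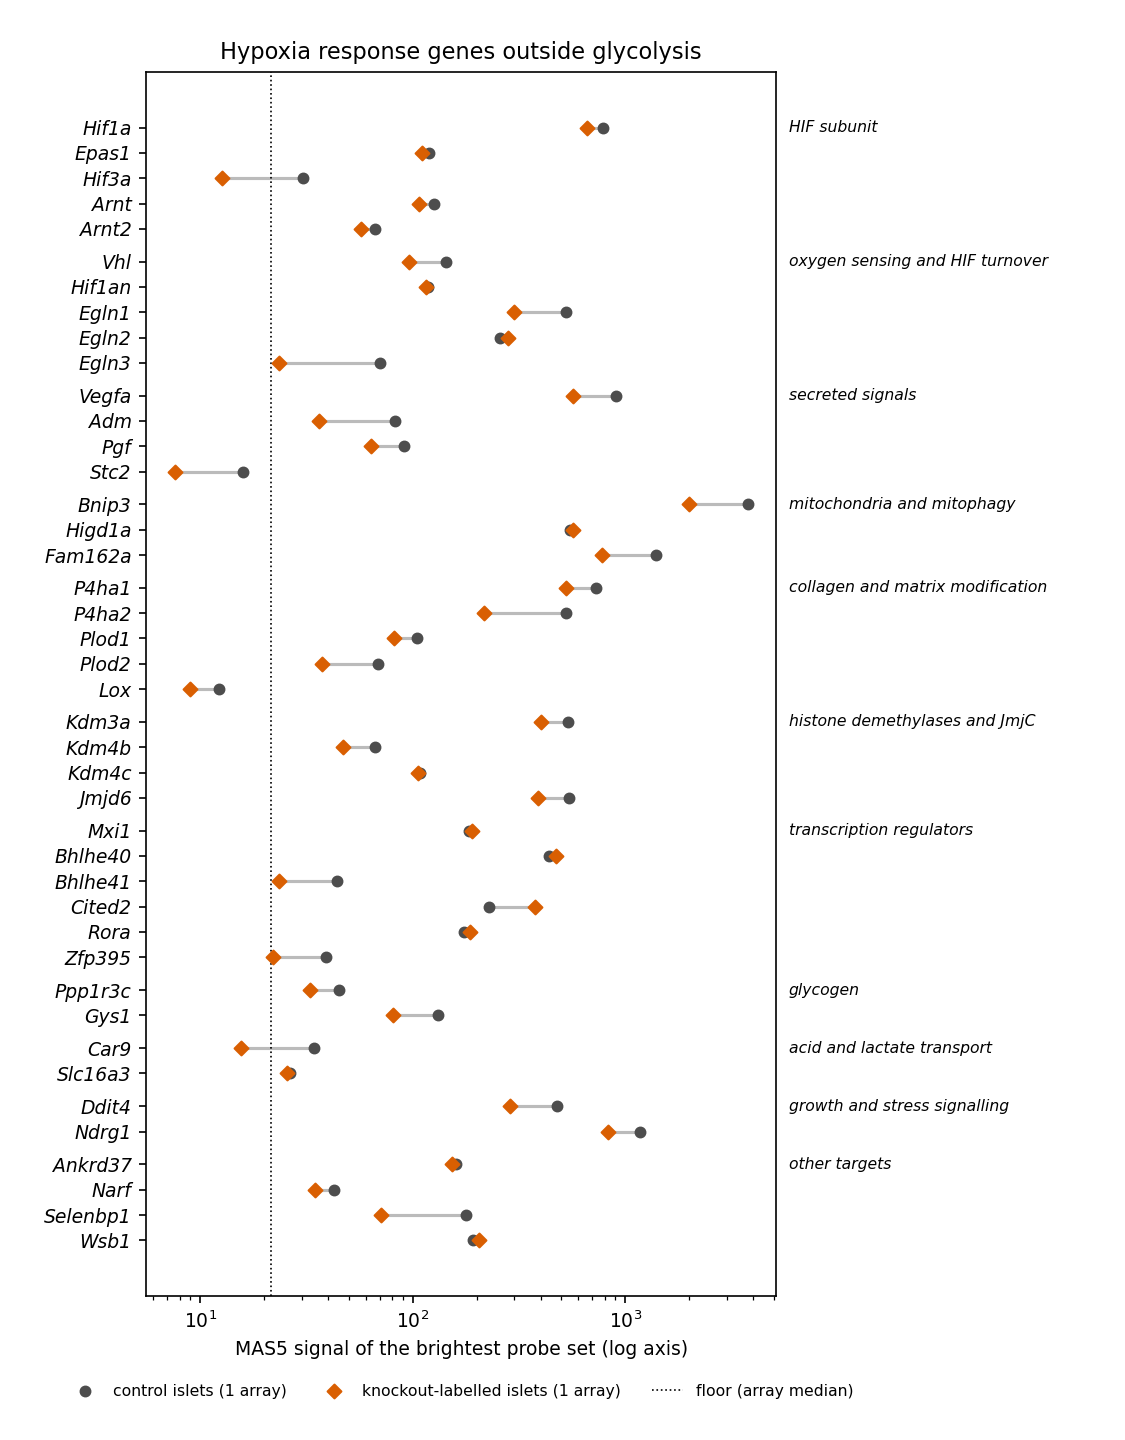
MAS5 signal (log axis) of the brightest probe set of each of the 42 members in control islets (grey circles) and knockout-labelled islets (orange diamonds), 1 array each, ordered by role; the dotted line is the floor of 21.6. Most diamonds lie left of their circles, Cited2 lies to the right, and the HIF subunits above the floor lie close together.

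The promoters of 6 members are shown because the values turn on these genes: the 4 with a ratio of 2-fold or more, Bnip3, a mitophagy gene far above the floor on both arrays, and Cited2, the only member past 1.5-fold in the other direction. All 6 were picked by their values. Sequences are RefSeq windows of build GRCm38.p6, 300 bases each, from 250 bases before the annotated start to 50 after it, 5' to 3' on the gene's strand, with capitals for ACGTG and GCGTG read on either strand (CACGT and CACGC on the opposite one). The windows are chr12:54203825-54204124 (minus strand) for Egln3, chr11:54100674-54100973 (plus) for P4ha2, chr7:110627407-110627706 (plus) for Adm, chr3:94932833-94933132 (plus) for Selenbp1, chr7:138909457-138909756 (minus) for Bnip3 and chr10:17722978-17723277 (plus) for Cited2.
Egln3: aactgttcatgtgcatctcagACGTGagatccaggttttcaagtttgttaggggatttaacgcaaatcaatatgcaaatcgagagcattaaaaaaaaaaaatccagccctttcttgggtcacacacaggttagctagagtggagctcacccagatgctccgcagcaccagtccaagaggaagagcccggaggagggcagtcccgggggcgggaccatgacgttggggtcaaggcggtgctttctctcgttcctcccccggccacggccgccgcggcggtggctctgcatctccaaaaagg
P4ha2: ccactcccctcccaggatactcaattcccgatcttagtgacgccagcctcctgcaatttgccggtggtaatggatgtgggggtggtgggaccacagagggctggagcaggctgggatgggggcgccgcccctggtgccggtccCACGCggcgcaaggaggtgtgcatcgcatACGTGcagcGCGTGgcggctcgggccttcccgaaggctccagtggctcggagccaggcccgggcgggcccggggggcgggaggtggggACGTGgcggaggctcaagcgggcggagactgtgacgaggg
Adm: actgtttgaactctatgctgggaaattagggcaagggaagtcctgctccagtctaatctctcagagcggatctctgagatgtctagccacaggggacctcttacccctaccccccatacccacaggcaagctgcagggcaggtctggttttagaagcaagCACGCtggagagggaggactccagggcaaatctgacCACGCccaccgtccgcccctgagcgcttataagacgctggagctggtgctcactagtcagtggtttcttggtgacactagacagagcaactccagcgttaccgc
Selenbp1: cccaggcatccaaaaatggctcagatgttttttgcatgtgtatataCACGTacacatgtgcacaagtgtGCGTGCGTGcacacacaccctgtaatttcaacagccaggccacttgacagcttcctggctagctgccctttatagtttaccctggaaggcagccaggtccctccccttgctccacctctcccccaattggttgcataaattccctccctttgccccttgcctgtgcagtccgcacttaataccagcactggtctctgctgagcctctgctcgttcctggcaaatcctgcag
Bnip3: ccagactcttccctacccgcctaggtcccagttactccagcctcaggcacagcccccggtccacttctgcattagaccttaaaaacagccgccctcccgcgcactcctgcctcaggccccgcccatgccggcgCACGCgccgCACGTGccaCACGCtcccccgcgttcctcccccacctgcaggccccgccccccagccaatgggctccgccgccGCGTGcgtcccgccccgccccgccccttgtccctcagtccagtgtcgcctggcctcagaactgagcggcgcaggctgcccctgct
Cited2: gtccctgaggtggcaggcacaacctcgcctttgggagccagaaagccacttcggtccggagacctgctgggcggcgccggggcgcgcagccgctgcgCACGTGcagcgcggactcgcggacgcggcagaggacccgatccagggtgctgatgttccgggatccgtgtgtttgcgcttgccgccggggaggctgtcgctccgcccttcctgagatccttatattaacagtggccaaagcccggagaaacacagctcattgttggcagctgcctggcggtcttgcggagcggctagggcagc

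Either core was present in each of the 6 windows, once in Egln3, 4 times in P4ha2 and 5 times in Bnip3. A match is common: either core was in 75.0% of the members' windows, 62.4% of those of genes measured on the arrays and 43.8% of all windows. The match in Cited2 lies within CACGTG, an E-box that holds ACGTG on both strands and so counts as 2 matches, and Bnip3 holds one as well. RefSeq windows were found for 35 of the 44 genes, some with several start sites, 44 windows in all. ACGTG on either strand was in 24 of these (54.5%), against 26.0% of the 11525 windows of genes measured on the arrays and 19.6% of all 32851 windows. GCGTG was in 59.1%, against 50.6% and 32.4%. The median GC content stood in the same order, at 64.2% in the members' windows, 61.0% in those of measured genes and 52.7% in all windows. Of the windows of members at least 1.5-fold lower, 10 of 13 held ACGTG, and of those of the other measured members 14 of 29. These are counts of windows, the 13 from 12 genes and the 29 from 21 genes. The groups were formed from the ratios reported here, so whether ACGTG goes with a lower signal was not tested. A match is a string of letters in a window and not a measured binding site, and many HIF sites lie farther from the start.

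The genes for the HIF subunits differed little. Hif1a, which encodes the most widely expressed oxygen-labile alpha subunit, had a signal of 787 in control islets and 662.9 in the knockout-labelled ones, 1.19-fold lower, and its 3 probe sets above the floor on both arrays all lay between -0.30 and -0.06 on the log2 scale. Epas1, the alpha subunit gene best known from endothelium and the kidney, was 118.7 and 110.3. The log2 ratios of -0.25 and -0.11 are of the size by which probe sets of a single gene scatter. Arnt, the stable partner of the alpha subunits, was 125.3 and 106.8 in its brightest probe set. Its probe sets went apart, however: another of nearly the same brightness was 89.8 and 142.7 (log2 ratio 0.67) and a dimmer one 56.3 and 110.1 (log2 ratio 0.97), so no direction can be given for Arnt. Arnt2, a partner known best from neurons, was 66.6 and 57.1. Hif3a, whose shorter forms can restrain the other subunits, had 30.3 and 12.7 in its brightest of 6 probe sets. The control signal was above the floor, but the mean of the arrays was not, so Hif3a did not count as measured.

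Oxygen-sensing genes split by family member. Egln3, a hydroxylase gene that HIF itself induces, had a signal of 70.2 in control islets and 23.4 in the knockout-labelled ones, 3.0-fold lower. The knockout-labelled signal sits just above the floor of 21.7, and a dimmer probe set went from 39 to 6.0, under the floor. Egln1, the main hydroxylase acting on HIF in most cells and also a HIF target, was 526.7 and 298.2, 1.77-fold lower, although its other probe set was 115.1 and 101.2 (log2 ratio -0.19). Egln2, the family member that is not known to be induced by hypoxia, was 256.7 and 281.3. Vhl, the substrate-binding part of the ubiquitin ligase that removes HIF, was 143 and 95.7, 1.49-fold lower, just short of the 1.5-fold limit, with another probe set at 86.3 and 72.4. Hif1an, an asparagine hydroxylase that blocks coactivator binding, was 117.5 and 115.9. Egln1 and Egln3, the pair of regulators that are HIF targets themselves, were the only measured regulators past 1.5-fold. Leaving them out was chosen after seeing the data, so the count of 0 among the 7 remaining regulators was fixed by that choice. Over all genes, 6.41% passed the limit on the lower and 7.02% on the higher side, so 0 among 7 is also near the background. The median log2 ratio of these 7 regulators was -0.22.

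Secreted signals were lower in each measured case. Vegfa, the growth factor by which islet cells maintain their capillaries, was 902.2 in control islets and 566.8 in the knockout-labelled ones, 1.59-fold lower, and 339 and 299.8 in its other probe set (log2 ratio -0.18). Adm, which encodes the vasodilator peptide adrenomedullin, was 82.3 and 36.4, 2.26-fold lower, and its other probe set gave nearly the same ratio at 71 and 33.3. Pgf, a relative of Vegfa that binds a shared receptor, was 91.1 and 63.5. Stc2, a secreted glycoprotein gene, stayed under the floor at 15.9 and 7.6.

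Of the mitochondrial genes, those for proteins tied to mitophagy and cell death were lower. Bnip3, a mitophagy receptor of the outer membrane, was 3769 in control islets and 1998.1 in the knockout-labelled ones, 1.89-fold lower in its only probe set. Fam162a, a mitochondrial protein gene induced by HIF, was 1400 and 776.7, 1.80-fold lower. Both are bright, where ratios scatter least. Measured genes were split into 3 classes of equal size by mean signal, and at least 1.5-fold lower were 2.85% of the brightest class, 4.46% of the middle one and 11.9% of the dimmest. Higd1a, an inner membrane protein gene of the same response, was nearly equal at 548.8 and 566.7; another probe set was 63.9 on both arrays.

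The 4 measured collagen-modifying genes were all on the lower side, by very different amounts. P4ha2 and P4ha1 encode alternative catalytic subunits of the prolyl hydroxylase that stabilises the collagen triple helix. P4ha2 was 524 in control islets and 216.6 in the knockout-labelled ones, 2.42-fold lower, in its only probe set. P4ha1 was 730.4 and 524.2, 1.39-fold lower, with 539.9 and 405.7 in the other probe set. Plod2, a lysyl hydroxylase gene for collagen cross-links, was 68.6 and 37.4, 1.83-fold lower, and its relative Plod1 was 105 and 81.7. Lox, a collagen cross-linking oxidase gene made mainly by fibroblasts, was at 12.2 and 9.0 in the brightest of 3 probe sets, under the floor. Fibroblast, stellate and smooth muscle markers, the cells best known for these enzymes, had a median log2 ratio of -0.37 over 7 measured genes, with summed signals of 478 and 434 and with Col1a1, Pdgfra and Tagln under the floor. The sum holds the pericyte gene Rgs5, which was higher in its brightest probe set (197.1 and 245.6). Its other probe sets had log2 ratios of 0.28, -0.03 and -0.205, so no direction can be given for Rgs5. Lower were the collagen gene Col3a1 (46 and 22.5) and the smooth muscle actin gene Acta2 (61.2 and 47.4). The matrix genes Dcn (61.6 and 19.8) and Lum (31.7 and 19.7), named after their values were seen, were lower too and ended under the floor. The remaining measured markers, Pdgfrb (54.1 and 55.4) and Col1a2 (26.5 and 23.4), differed little. The part of these cells in the collagen genes was not tested.

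The JmjC oxygenases, which use oxygen as a substrate and include HIF-induced histone demethylases, did not reach 1.5-fold in their brightest probe sets. Kdm3a was 539.6 and 403, Kdm4b 66.5 and 47.1, and Jmjd6, a lysyl hydroxylase gene of the same fold, 545.8 and 389. Their fold differences ran from 1.34 to 1.41, all lower, and another probe set of Jmjd6 was 385.2 and 253.6, 1.52-fold lower. Kdm4c, at 107.8 and 106.2, was nearly equal.

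Transcription regulators were the one group of targets whose median was above 0, at 0.07 over 6 genes, and they divided between lower, equal and higher. Cited2, which encodes an inhibitor that competes with HIF for its coactivators, was 229.4 in control islets and 376.1 in the knockout-labelled ones, 1.64-fold higher, and 88.1 and 129.9 in its other probe set (log2 ratio 0.56). Bhlhe41, a repressor of the circadian clock, went the other way at 43.9 and 23.5, 1.87-fold lower, whereas its close relative Bhlhe40 was 437.6 and 470.2. Zfp395, a zinc finger gene, was 38.9 and 21.9, 1.78-fold lower. Both Bhlhe41 and Zfp395 end next to the floor of 21.7, in the dimmest class of genes, where 11.9% were at least 1.5-fold lower. Mxi1, a Myc antagonist, was 184.1 and 190.8. Rora, a nuclear receptor gene, was 174.8 and 185.9, and its 8 probe sets above the floor on both arrays divided evenly, 4 lower and 4 higher.

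In glycogen metabolism, Gys1, the glycogen synthase gene of muscle and most tissues, was 130.9 in control islets and 81 in the knockout-labelled ones, 1.62-fold lower, and 80.2 and 33.4 in its other probe set (log2 ratio -1.26). Ppp1r3c, which encodes a subunit that brings a phosphatase to glycogen, was 45.1 and 32.8. Car9, a carbonic anhydrase gene among the most hypoxia-specific targets known, was 34.4 and 15.5, so that the knockout-labelled signal was under the floor and the difference is at least 1.59-fold. Slc16a3, a lactate exporter gene normally kept low in beta cells, was 26.6 and 25.7, close to the floor on both arrays.

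Growth control genes were lower as well. Ddit4, an inhibitor of mTOR signalling, was 479.4 in control islets and 285.5 in the knockout-labelled ones, 1.68-fold lower. Ndrg1, a stress-induced gene widely used as a hypoxia marker, was 1176.2 and 831.5, 1.41-fold lower, and all 5 of its probe sets were lower, between -0.76 and -0.50 on the log2 scale. Of the remaining targets, Selenbp1, a selenium-binding protein gene, was 178.2 and 71.2, 2.5-fold lower, and 81.5 and 13.6 in a dimmer probe set. Mice carry a near-identical gene, Selenbp2, whose transcripts the brighter probe set can take up, so the value may belong to both. Ankrd37 was 160.5 and 153.7, Wsb1, a ubiquitin ligase subunit gene, 191.9 and 206.1, and Narf 42.6 and 34.8, none of them near 1.5-fold.

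**Figure D2:**
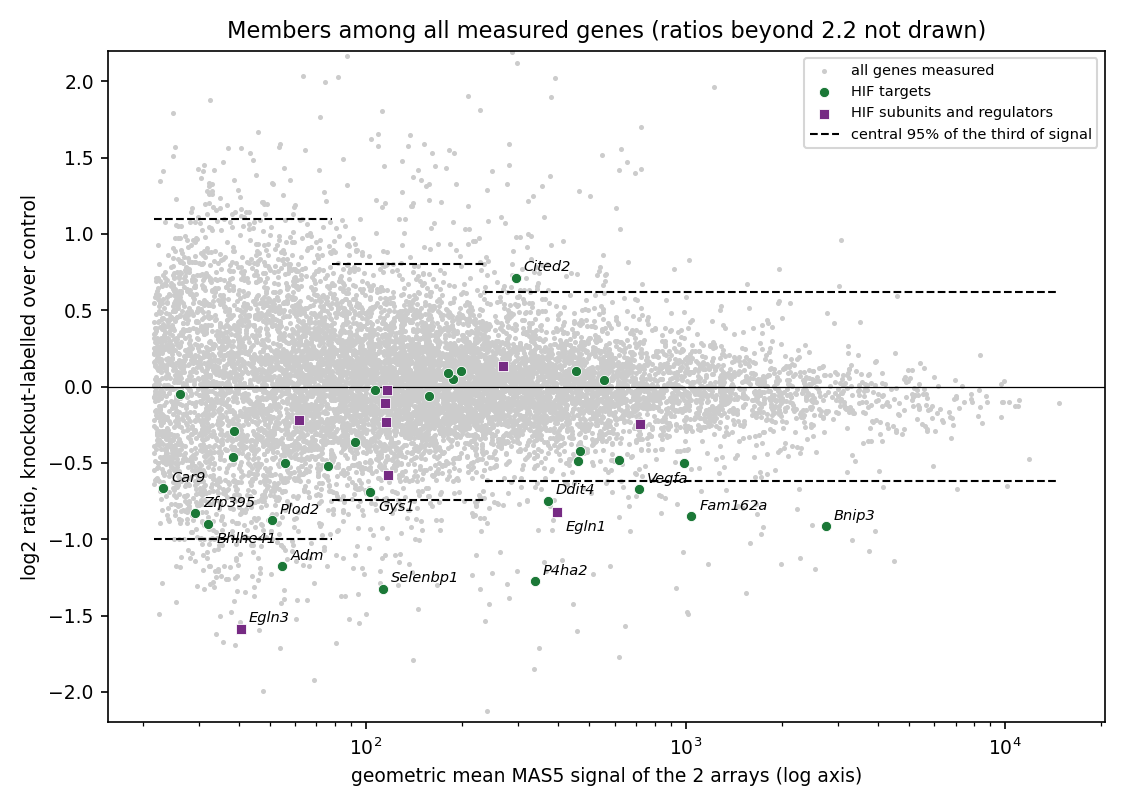
Log2 ratio of knockout-labelled over control against the geometric mean signal (log axis) for all measured genes (grey), targets (green circles) and regulators (purple squares); dashed lines bound the central 95% of genes in each of 3 signal classes of equal size. Named points differ by at least 1.5-fold; 9 members lie below the dashed range and Cited2 above it.

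Since weak genes scatter more, each member was also placed within its signal class. The central 95% of log2 ratios ran from -1.0 to 1.1 in the dimmest class, from -0.74 to 0.80 in the middle and from -0.62 to 0.62 in the brightest. Of the 39 measured members, 9 lay below the range of their class, where the same holds for 2.52% of all genes: Egln1, Egln3, Vegfa, Adm, Bnip3, Fam162a, P4ha2, Ddit4 and Selenbp1. Cited2 alone lay above. Plod2, Bhlhe41, Zfp395 and Gys1 were past 1.5-fold but within the range of genes of like signal. Car9 has only a bound and cannot be placed. With the mean over all probe sets, Egln1 (log2 ratio -0.50), Vegfa (-0.42) and Fam162a (-0.45, its dimmer probe set being next to or under the floor) were no longer past 1.5-fold. Gys1 moved the other way, from -0.69 in its brightest probe set to a mean of -0.98.

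**Figure D3:**
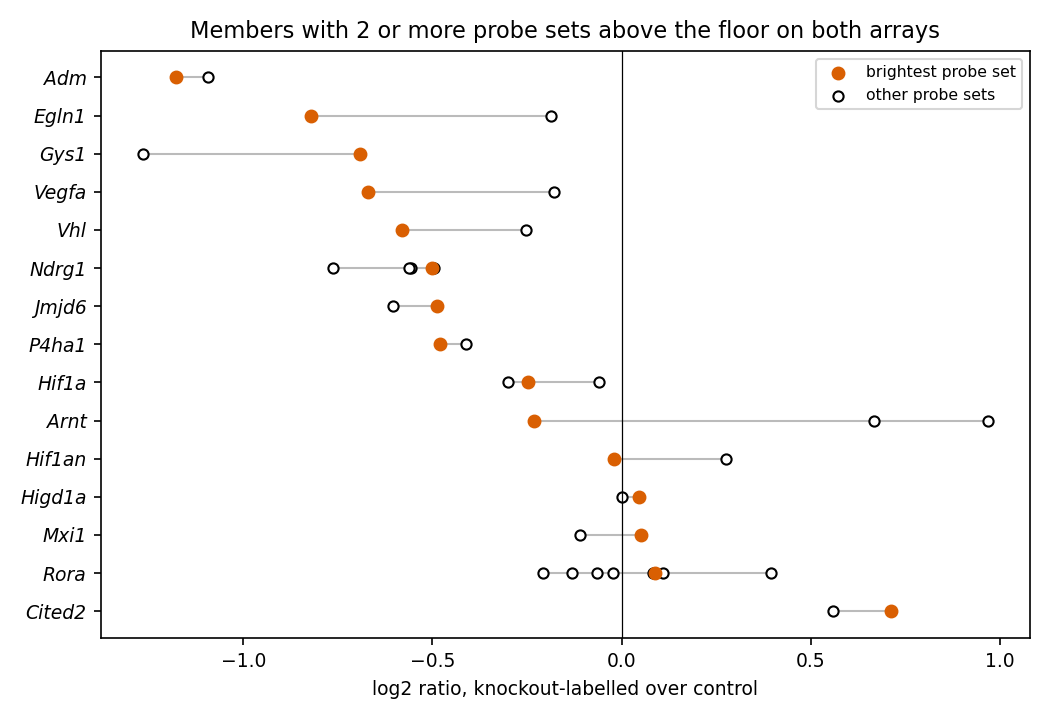
Log2 ratios of single probe sets for the 15 members with 2 or more probe sets above the floor on both arrays (filled, brightest; open, others). The 9 genes from Adm to Hif1a lie wholly below 0, Cited2 wholly above, and Arnt, Hif1an, Mxi1 and Rora on both sides.

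Agreement between probe sets of a gene was the only internal check on a ratio. In all, 64 probe sets of members were above the floor on both arrays, and 49 of them were lower and 14 higher, beside 49.5% lower among all 18307 such probe sets. Of 15 members with several, 4 had probe sets in both directions: Arnt, Hif1an, Mxi1 and Rora. None of these was past 1.5-fold in its brightest probe set, but the other probe sets of Arnt were 1.59-fold and 1.96-fold higher. Of the 14 members at least 1.5-fold lower, only 4 had several such probe sets, so the check does not reach the others. These 4, Adm, Egln1, Gys1 and Vegfa, were lower in each of them, but Egln1 and Vegfa by much less in the dimmer one. The share of all genes whose probe sets go in 1 direction is not given here.

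Other genes of the pathway, 60 symbols listed apart from the members, lay on both sides of 0. Of 46 that were measured, 27 were lower (49.9% of all genes) and 19 higher, with a median log2 ratio of -0.06. At least 1.5-fold lower were 5 (10.9%, against 6.41% of all genes), and 4 were at least 1.5-fold higher (7.02% of all genes). The 15 genes for HIF turnover and coactivators had a median of -0.03. Akt1, a kinase that acts upstream of HIF synthesis, was 226.8 in control islets and 454 in the knockout-labelled ones, 2.0-fold higher, with 160 and 235.3 in another probe set. Siah1a, a ubiquitin ligase gene that acts on EGLN proteins, was 110.4 and 208.4 in its brightest probe set by mean log2 signal, 1.89-fold higher, while its other probe sets were nearly equal at 151.4 and 149.5 and at 76.6 and 83.6. The 31 further HIF targets had a median of -0.11. Ak4, a mitochondrial adenylate kinase gene, was 289.5 and 168.6, 1.72-fold lower. Also past 1.5-fold, and named after their values were seen, were Hilpda, a lipid droplet protein gene (327.9 and 193.8), Pnrc1 (1693.1 and 1058.3), Nampt (352 and 228.7) and the endothelin gene Edn1 (35.7 and 20.3, a bound) on the lower side. The creatine transporter gene Slc6a8 (269 and 449.9) and the secreted hormone gene Stc1 (165.7 and 271.6) were on the higher side.

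Glycolysis genes, the other arm of the HIF response, were at a like distance from 0 as the targets. Their median log2 ratio was -0.56 over 18 measured genes of 22 listed, and 17 of them were lower (49.9% of all genes). At least 1.5-fold lower were 8 (44.4%, against 40.0% of the 30 measured targets and 6.41% of all genes). With 1 array per genotype, whether the arms differ cannot be tested. Hk2, a hexokinase gene, was 56.1 and 28, Slc2a3, a glucose transporter gene, 46.6 and 23.4, and Aldoc, an aldolase gene, 179.8 and 92.5. Hk2 and Slc2a3 end near the floor of 21.7, in the dimmest class of genes, where 11.9% were at least 1.5-fold lower.

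**Figure D4:**
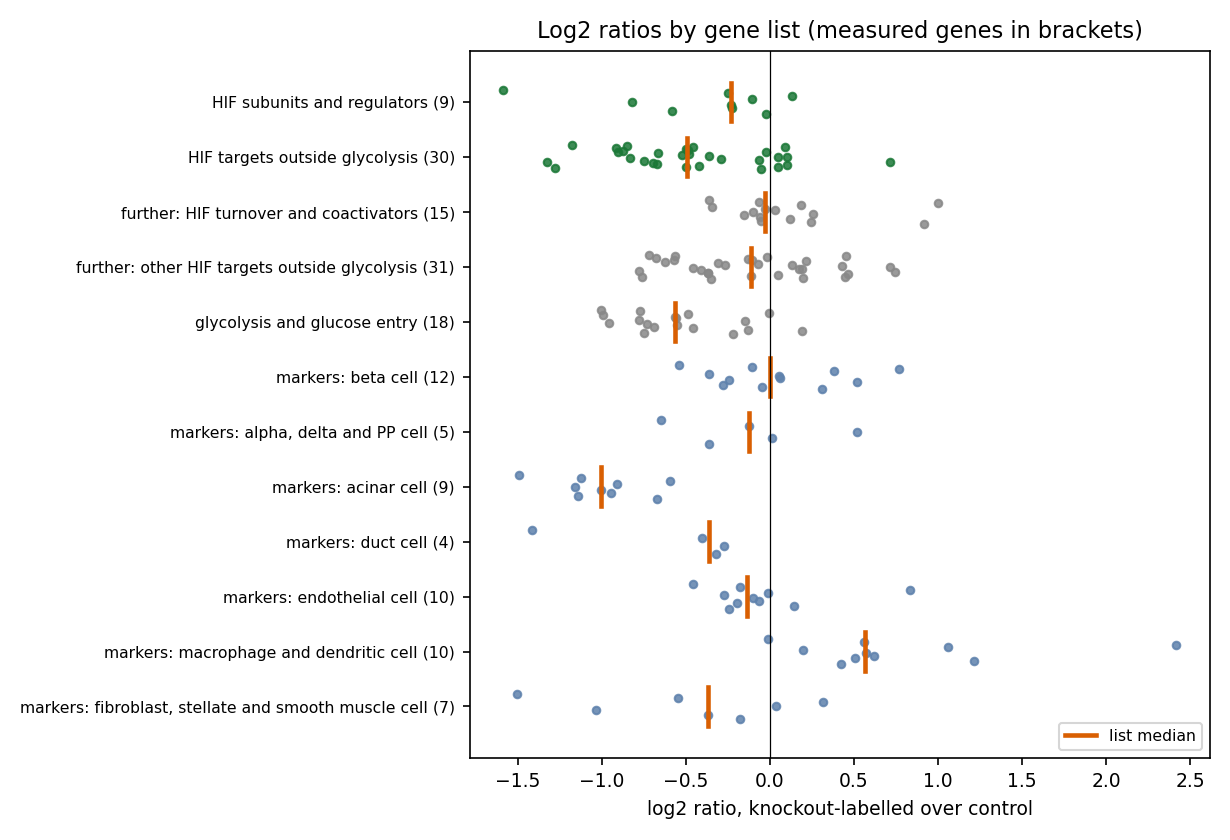
Log2 ratios of the measured genes of each list (points) with the list median (orange bar); members are green, the other pathway and glycolysis genes grey, and cell type markers blue. Targets (median -0.49) and glycolysis genes (-0.56) lie mostly left of 0, beside acinar markers farther left (-1.0) and macrophage markers to the right (0.56).

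Cell type markers also differed between the arrays. Beside their counts stands the share of all measured genes that were lower, 49.9%. An islet preparation is a mixture, so fewer cells of a type and less RNA per cell cannot be told apart. Acinar cell markers were lower in 9 of 9 measured genes, with a median log2 ratio of -1.0 and summed signals of 39279 and 20475; Rbpjl and Ptf1a, transcription factors of that cell, were under the floor. Among them Reg1 was 1709 and 607.5, Cel 2971.6 and 1330, and Prss2 6649.2 and 3013.4. Macrophage and dendritic cell markers were higher in 9 of 10, with a median of 0.56 and summed signals of 903 and 1419. They were led by Mrc1 (24.5 and 130.8), C1qb (49.1 and 113.9) and Tyrobp (45.1 and 94.2), with Fcgr3 and Itgam under the floor. The control signal of Mrc1 is next to the floor of 21.6. Other probe sets of C1qb were 35.7 and 44, and 8.3 (under the floor) and 41.7. Endothelial markers, of interest beside Vegfa, were lower in 8 of 10 by small amounts, with a median of -0.14 and summed signals of 1236 and 1168. The junction genes Cdh5 (78.9 and 57.5) and Esam (231.6 and 191.6) were lower, Kdr, the main receptor for VEGFA, was higher at 40.9 and 72.8, and Tie1 was under the floor. Duct markers had a median of -0.36 over 4 measured genes, with Sox9, Cftr and Muc1 under the floor. The keratin genes Krt8 (2339 and 1767.4), Krt19 (51.1 and 41) and Krt18 (3509 and 2903.2) were lower. Car2, named after its values were seen, was 57.8 and 11.2, so it ended under the floor and was at least 2.66-fold lower. Beta cell markers had a median of 0.004 over 12 genes and summed signals of 37124 and 35028, with Pcsk1 at 1505.4 and 2563.2, Slc2a2 at 276.4 and 396.4 and Ucn3 at 371.1 and 255.4. Alpha, delta and PP cell markers had a median of -0.12 over 5 genes, with Ppy at 12702.3 and 8094.7, Irx2 at 99.1 and 77 and Hhex at 86 and 123.1. The part of these cell types in the members' ratios was not tested.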

How the data were processed

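Gene expression was measured on 1 Affymetrix array for islets of each genotype, from 6 ug of total RNA. The authors deposited an intensity for each probe set on a linear scale, a MAS5 signal per the submitters' processing notes, which summarises perfect match and mismatch probes. The version, scaling target and detection calls are not given in the sources used here. Both arrays had a mean of 99.3 after trimming 2% at each end, as on arrays scaled alike, and were used as deposited.

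Genes came from the platform annotation, which can carry old names: 34945 probe sets had 1 gene, 932 several and 9160 none. Signals under the floor, the 50th percentile of each array, were set to it before taking the log2 ratio, so a ratio against such a signal is a bound ("at least"). This held for 496 of 10960 measured genes. The floor is not a detection limit. Filtering on the mean of both arrays keeps genes that are low on 1 array only. In the high and low direction, 1.5-fold and 2-fold served as limits. All members were named, and of the other lists the 3 measured genes with the ratios farthest from 0 among those above the floor on both arrays. Some further genes of those lists were named after their values were seen. Members and lists were chosen with earlier results of these data known. Scaling, floor, probe set rule and fold limit were varied. Ratios were computed with Python 3.11.15, pandas 2.3.3 and numpy 2.4.6, and the procedure was tested on simulated data.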

Additional observations from a re-analysis of the deposited data

How the results depend on the processing

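Under the 8 to 10 alternatives that gave each a value, all 15 members past 1.5-fold kept their direction, as did 21 of the 24 measured members within it. Arnt, Hif1an and Mxi1 changed sign. The alternatives use the same 2 arrays, a floor cannot turn a direction, and a gene with 1 probe set keeps it under each probe set rule. A kept direction was thus largely fixed beforehand and says nothing about variation between animals. The median of the targets ran from -0.50 to -0.42 and that of the regulators from -0.30 to -0.11. With the floor at the 70th percentile, 28 members were measured, 2 of them at least 2-fold lower (0.826% of all genes) and 8 at least 1.5-fold lower (3.47%), since fewer genes pass that floor; over all genes, 64 were then at least 2-fold lower and 92 higher, against 167 and 207 as reported and 527 and 588 with a 30th percentile floor. At a limit of 3-fold, 1 member, Egln3, was lower (0.155% of all genes). With probe sets whose names carry no _s, _x or _a, 2 members were at least 1.5-fold higher (7.39% of all genes), since Arnt is then represented by another probe set (log2 ratio 0.67). Quantile normalization, loess and division by array medians moved no count of members by more than 1. Counting genes above the floor on at least 1 array or on both, and leaving out Egln1 and Egln3, were chosen after seeing the data. No paired analysis was possible because each genotype has 1 array. Signals near the floor limit Egln3, Bhlhe41, Zfp395, Car9 and Slc16a3: with no floor and 16 added to each signal, the log2 ratio of Egln3 was -1.13, that of Adm -0.91 (short of 2-fold) and that of Zfp395 -0.53 (short of 1.5-fold). With the mean over all probe sets, 11 members were at least 1.5-fold lower, and Egln1, Vegfa and Fam162a were not.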
